A study of Mus musculus with 92 samples.

Results

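The animals described here are mice whose quadriceps muscle carried an unusually high level of Myh13, and they were 10 of the 92 animals of the series. They were chosen by the Myh13 value alone: an animal counted as high where Myh13 stood above 7 on the deposited log2 scale, and the other 82 animals counted as low. All 92 belonged to the labels' DOz stock, an outbred population in which each mouse inherits its own mixture of founder alleles. High and low animals shared tissue, diet (chow throughout life) and approximate age (18 to 20 weeks), and the labels name no treatment or genotype that separates them. Each library is the total RNA of quadriceps from 1 titled animal, prepared as polyadenylated-RNA sequencing libraries, and the animals are named here by their titles. The labels give neither the sex of single animals nor how litters or cages were spread, so the p-values below measure only the spread between these animals.

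Myosin heavy chains are the motor proteins of the sarcomere, and the isoform that a fibre uses sets much of its speed of contraction. Adult limb muscle of the mouse is built mainly from the fast chains Myh4 (type IIb), Myh1 (type IIx) and Myh2 (type IIa) and the slow chain Myh7, while Myh3 and Myh8 are the embryonic and perinatal chains. Myh13 encodes the superfast chain known from extraocular and laryngeal muscle and is not regarded as a chain of limb muscle. It lies at the end of a cluster on chromosome 11 that also holds Myh3, Myh2, Myh1, Myh4 and Myh8.

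Because these chains are close relatives, part of their sequence cannot tell them apart. Of all 31-base words in the transcripts of Myh13 in the GENCODE M21 annotation (build GRCm38), 13.4% also occur in another gene, and Myh8 holds 8.59%, Myh1 5.95% and Myh4 5.59% of them. The longest run shared by the coding sequences of Myh13 and Myh8 is 213 bases, from coding base 1318 to 1530 of Myh13 and from 1321 to 1533 of Myh8. It is shown because the level of Myh8 is set against that of Myh13 below, with the identical run in capitals and 15 bases on each side in lower case.
Myh13: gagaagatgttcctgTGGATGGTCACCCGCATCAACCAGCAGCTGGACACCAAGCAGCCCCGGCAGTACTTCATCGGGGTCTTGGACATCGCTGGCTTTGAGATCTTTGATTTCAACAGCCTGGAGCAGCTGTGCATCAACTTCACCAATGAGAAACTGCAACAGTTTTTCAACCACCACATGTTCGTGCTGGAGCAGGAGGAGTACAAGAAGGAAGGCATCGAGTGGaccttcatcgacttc
Myh8: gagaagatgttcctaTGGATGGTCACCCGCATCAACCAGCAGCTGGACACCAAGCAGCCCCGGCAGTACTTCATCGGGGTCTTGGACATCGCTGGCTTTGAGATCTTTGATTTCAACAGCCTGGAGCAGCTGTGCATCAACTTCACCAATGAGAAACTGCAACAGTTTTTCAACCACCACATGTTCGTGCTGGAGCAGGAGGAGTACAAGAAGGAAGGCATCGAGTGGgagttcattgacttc
A read that falls wholly within the capitals fits both genes, and how such reads were shared out is not given in the sources used here. The longest runs shared with the other chains are 167 bases for Myh3, 134 for Myh1, 110 for Myh2 and 94 for Myh4.

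Myh13 (ENSMUSG00000060180, chromosome 11, 67321658 to 67371586, plus strand, GRCm38) split the animals with nothing in between. On the log2 per-million scale, the level in the 10 high animals was lowest at 10.28, had a median of 10.99 and was highest at 11.57. In the 82 low animals the lowest level was 1.28, the median 2.72 and the highest 4.49. The values next to the threshold were therefore 10.28 inside it and 4.49 outside it, a step of 5.79. The means were 10.96 ± 0.42 (SD, n = 10) and 2.65 ± 0.66 (SD, n = 82), which differ by 8.31 on the log2 scale or 318-fold. Since these values chose the groups, they are a description and were not tested. The plot of Myh13 in every animal shows the step.

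**Figure D1:**
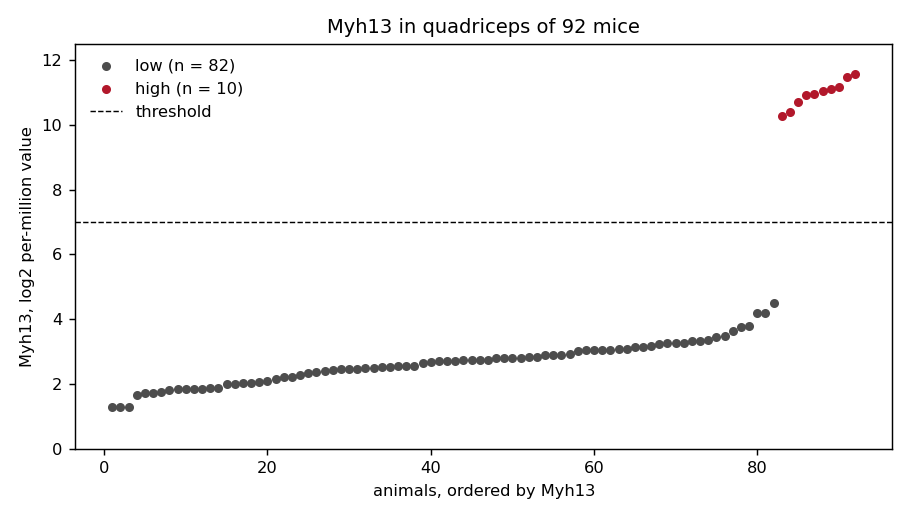
Myh13 level (log2 per-million value, vertical axis) of each of the 92 animals, ordered along the horizontal axis by that level, with the threshold of 7 as a dashed line. The 10 high animals lie between 10.28 and 11.57 and the 82 low animals between 1.28 and 4.49, with no animal near the threshold.

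Even in the high animals Myh13 was a small part of the heavy chain transcripts, although its level ranked between 38 and 68 among 13441 genes there. As a share of the summed per-million values of 9 sarcomeric heavy chains (Myh1, Myh2, Myh3, Myh4, Myh6, Myh7, Myh7b, Myh8 and Myh13), Myh13 made up from 1.8% to 5.4% in the high animals, with a median of 2.93%. In the low animals it made up from 0.00281% to 0.0352%, with a median of 0.00901%. Myh4 held the largest share in both groups, with medians of 83.6% (79.3% to 85.8%) in the high and 88.8% (72.9% to 94.1%) in the low animals, and these ranges overlap. Whether the deposited values were scaled by length is not known here. After division by exon length, which is 6180 bases for Myh13 and 6016 for Myh4, the medians in the high and low animals were 2.9% and 0.00887% for Myh13 and 85% and 89.8% for Myh4. In bulk muscle, many fibres with a little Myh13 and a few fibres with much of it cannot be told apart.

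The high animals were spread over the numbering of the titles. The title numbers fall into 5 runs separated by gaps of more than 30, which were treated as a possible batch because the labels do not explain them. High and low animals numbered 5 and 28 in the first run, 1 and 13 in the next, 3 and 18 in the third, 1 and 10 in the fourth, and 0 and 13 in the last. The median log2 value of a library was between 3.46 and 3.53 in the high and between 3.43 and 3.55 in the low animals. Scores on the first principal component had a median of 8.47 (-4.14 to 20.89) in the high and -2.83 (-40.30 to 52.25) in the low animals. The high animal Geniad55, which had the highest Myh13, stood apart from the other high animals: its score on the principal component ranked second by variance was 59.98, where the highest low animal had 38.03. Calls that were lost without it, the medians of the gene lists and the values of some myosins are given with and without it. The muscle markers Ckm, Acta1, Des, Myod1, Mb and Ttn were all present at similar levels, and 0 of the 6 passed the test. Ckm, the muscle creatine kinase, for example, was between 13.69 and 14.02 in the high and between 13.05 and 14.38 in the low animals.

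Across the other 13440 genes the high and low animals differed in very few, and nearly all of these lie on the chromosome of Myh13. The comparison used limma on the deposited log2 values with Benjamini-Hochberg adjustment over all genes. At an adjusted p under 0.05, 12 genes (0.0893% of those tested) differed, 4 higher (0.0298%) and 8 lower (0.0595%) in the high animals. At an unadjusted p under 0.05 there were 1009 genes (7.51%), with 430 higher (3.2%) and 579 lower (4.31%). Of the 12 genes, 11 are among the 1084 tested genes of chromosome 11, which is 1.01% of that chromosome, and 1 is among the 12356 others, which is 0.00809%. That gene is the long noncoding RNA Gm57403, whose identifier is among the 186 that the annotation used here does not hold, so its chromosome is not known here. No gene separated the groups fully (0 of 13440, or 0%), so in every other gene some low animals reached the level of some high animals. Without Geniad55, 9 genes passed, 8 of them among the 12, and all 9 lie on chromosome 11.

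The gene that differed most was 2610507I01Rik, a long noncoding RNA (chromosome 11, 59199836 to 59202385, minus strand) that starts 8.12 Mb before Myh13. Its log2 level in the high animals was lowest at 2.50, had a median of 2.76 and was highest at 3.98, while in the low animals it was lowest at -1.60, had a median of -0.32 and was highest at 3.42. All 10 high animals lay above 76 of the 82 low animals, and the other 6 low animals fell within the range of the high ones. The difference was 3.01 ± 0.32 (SE) on the log2 scale, with a limma adjusted p (Benjamini-Hochberg) of 8.80e-11. The values of this gene were themselves split, with no animal between 0.60 and 2.50. The 6 low animals above the split (Geniad126, Geniad174, Geniad179, Geniad290, Geniad337 and Geniad433) had Myh13 values from 1.29 to 4.20, with a median of 2.47, and the 76 below it from 1.28 to 4.49, with a median of 2.72. A high level of 2610507I01Rik was seen in every high animal and in these 6 low animals, of which Geniad174 (4.20) was among the 3 low animals highest in Myh13. Its transcripts share 0% of their 31-base words with other genes.

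Its neighbour Mrpl55, which encodes a protein of the large subunit of the mitochondrial ribosome (chromosome 11, 59202486 to 59206134, plus strand), also rose. The level of Mrpl55 in the high animals was lowest at 3.86, had a median of 3.97 and was highest at 4.45, against 2.96, 3.68 and 4.31 in the low animals. Every high animal exceeded 66 of the 82 low ones, and the groups overlapped above that. The difference was 0.40 ± 0.08 (SE), with a limma adjusted p (Benjamini-Hochberg) of 0.0071, and leaving out Geniad20 or Geniad27, the highest high animals in Mrpl55, gave 0.0672 and 0.0659. The starts of this pair are 101 bases apart on opposite strands. The stretch between them, chr11:59202386-59202485 in RefSeq's GRCm38.p6 sequence, read on the plus strand towards Mrpl55, is shown because both flanking genes moved together, with CG dinucleotides in capitals.
Stretch between 2610507I01Rik and Mrpl55: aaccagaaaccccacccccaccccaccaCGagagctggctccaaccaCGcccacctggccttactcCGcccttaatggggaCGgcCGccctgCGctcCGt
Of its 100 bases 68% are G or C, and it holds 7 CG dinucleotides.

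The next gene by p-value, 2410006H16Rik, is a further long noncoding RNA and starts 4.72 Mb before Myh13. Its level was lowest at 2.11, had a median of 2.59 and was highest at 3.56 in the high animals, against 1.04, 1.88 and 3.56 in the low animals. The lowest high animal exceeded 59 of the 82 low ones. The difference was 0.82 ± 0.14 (SE), with a limma adjusted p (Benjamini-Hochberg) of 0.000483. Igtp, an interferon-induced GTPase 9.12 Mb before Myh13, passed narrowly at 0.87 ± 0.20 (SE) and a limma adjusted p of 0.0453. Its level ran from 2.47 to 5.43 in the high animals, with a median of 3.52, and from 1.97 to 4.56 in the low animals, with a median of 2.85. The exons of Igtp overlap those of Irgm2 on the same strand, and 15.9% of its 31-base words occur in Irgm2, so reads of the pair may be mixed. Irgm2 itself differed by 0.77 ± 0.24 (SE), with a limma adjusted p of 0.323. Without Geniad55, Igtp did not pass (limma adjusted p = 0.227), and leaving out Geniad169, its highest, gave 0.482. It also missed without Geniad253 (0.168), Geniad27 (0.156), Geniad269 (0.0577) or Geniad117 (0.0541), and so passed in 4 of the 10 fits that leave out 1 high animal.

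Among the genes that fell, Slc47a1 changed most. It encodes an exporter of organic cations and starts 5.94 Mb before Myh13. The level of Slc47a1 in the high animals was lowest at 2.04, had a median of 2.93 and was highest at 3.51, against 2.26, 3.94 and 5.09 in the low animals. Of the low animals, 70 lay above the highest high animal. The difference was -1.04 ± 0.18 (SE), with a limma adjusted p (Benjamini-Hochberg) of 0.000483.

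The other falling genes with a protein product changed by less. Cpd, the membrane-bound carboxypeptidase D, starts 9.53 Mb beyond Myh13 and was at 5.84, 6.25 and 6.93 (lowest, median and highest) in the high and at 5.78, 6.80 and 7.20 in the low animals, a difference of -0.45 ± 0.08 (SE; limma adjusted p = 0.00155). Cops3, a subunit of the COP9 signalosome 7.48 Mb before Myh13, was at 5.73, 5.90 and 6.06 in the high and at 5.71, 6.15 and 6.50 in the low animals, a difference of -0.24 ± 0.05 (SE; limma adjusted p = 0.00338). The high animals of Cops3 lay in a narrow band, and 59 low animals lay above all of them. Ttc19, an assembly factor of respiratory complex III 5.04 Mb before Myh13, was at 5.30, 5.61 and 5.88 in the high and at 5.43, 5.86 and 6.19 in the low animals, a difference of -0.27 ± 0.06 (SE; limma adjusted p = 0.0118). Lgalsl, a galectin-like protein 46.49 Mb before Myh13, differed by -0.37 ± 0.08 (SE; limma adjusted p = 0.0123). Lgalsl owed part of this to Geniad55, which was lowest at 5.55, and without it the difference was -0.28 with a limma adjusted p of 0.227. Ttc19 did not pass without Geniad269, Geniad20 or Geniad27 (limma adjusted p from 0.0629 to 0.0977). Exons of Cops3 overlap those of Nt5m on the opposite strand, and those of Ttc19 overlap Ncor1, and whether the counting used strand is not given in the sources used here.

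Zswim7, a DNA repair factor whose start is 98 bases from that of Ttc19, missed the threshold. Its level was 2.99, 3.37 and 3.72 (lowest, median and highest) in the high and 2.85, 3.73 and 4.03 in the low animals, a difference of -0.32 ± 0.08 (SE) with a limma adjusted p of 0.0528. When single high animals were left out, that p ran from 0.0269 (without Geniad55) to 0.389 (without Geniad169), and Zswim7 also passed without Geniad27 (0.0413).

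The remaining falling genes are noncoding and had low or moderate levels. The long noncoding RNA 2310065F04Rik, known as linc-Myh, lies within the myosin cluster 0.20 Mb before Myh13, and was the closest gene to Myh13 that passed. Its level in the high animals was lowest at 5.41, had a median of 6.43 and was highest at 7.09, against 4.77, 7.38 and 8.36 in the low animals, and 54 low animals lay above every high one. The difference was -0.86 ± 0.19 (SE), with a limma adjusted p (Benjamini-Hochberg) of 0.0146. Geniad55 was its lowest high animal, and without it the difference was -0.75 with an adjusted p of 0.171. Leaving out Geniad350 or Geniad27 gave 0.0536 and 0.0533. Gm12059, 44.25 Mb before Myh13, differed by -0.94 ± 0.20 (SE; limma adjusted p = 0.0154), and leaving out Geniad169, Geniad269, Geniad20 or Geniad27 gave adjusted p-values from 0.0666 to 0.294. Gm57403 differed by -0.71 ± 0.14 (SE; limma adjusted p = 0.00706), and without Geniad55 or Geniad117 the adjusted p was 0.114 or 0.0756.

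**Figure D2:**
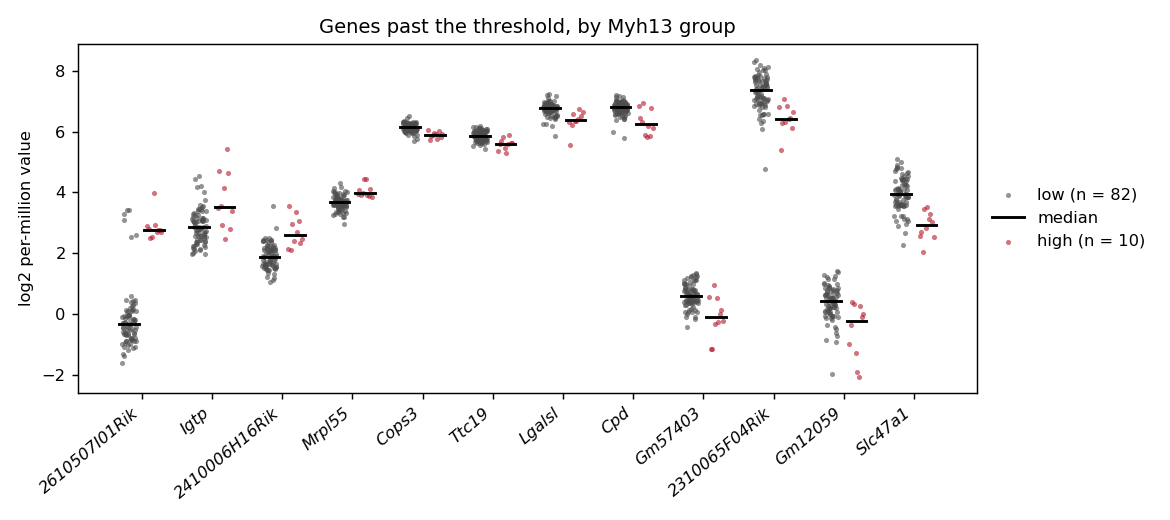
Log2 per-million level (vertical axis) of the 12 genes past the adjusted threshold in each low animal (grey, n = 82) and high animal (red, n = 10), with the group median as a black bar. 2610507I01Rik has the widest step, with 6 low animals at the level of the high ones, and the groups overlap in every gene.

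The number of these genes that followed the group differed between animals. For each of the 12 genes, the midpoint between the 2 group means was used to say on which side an animal lay, which is a description of the same animals that gave the differences and no test. High animals lay on the high group's side for between 4 (Geniad273) and 12 (Geniad169, Geniad27 and Geniad55) of the 12 genes, with a median of 9.5. Low animals did so for between 0 and 8 genes, with a median of 1, so the groups overlap in this count too. For 2610507I01Rik 10 of the 10 high and 6 of the 82 low animals lay on the high side, and for Mrpl55 10 and 16. For Gm12059 it was 5 and 11. The Myh13 value of Geniad273, 11.48, was among the highest, so the number of other genes on the high side did not follow the Myh13 level in that animal.

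The genes that passed reached far along chromosome 11. They ran from 46.49 Mb before the start of Myh13 to 9.53 Mb beyond it, and 10 of the 11 lie before it, Cpd being the exception. Within 1 Mb of Myh13, 1 of 14 genes (7.14%) passed, 2310065F04Rik, which did not pass without Geniad55, Geniad350 or Geniad27, and 5 (35.7%) reached the unadjusted threshold. Between 1 and 5 Mb 1 of 119 (0.84%) passed, with 16% at the unadjusted threshold, and between 5 and 20 Mb 7 of 344 (2.03%) passed, with 20.9%. Beyond 20 Mb 2 of 607 (0.329%) passed, with 9.56%. Over all of chromosome 11, 154 genes (14.2%) had an unadjusted p under 0.05, against 855 (6.92%) of all other genes. On the other chromosomes, apart from Y and the mitochondrial genome, the share at the unadjusted threshold ran from 4.61% (chromosome X) to 9.09% (chromosome 19). Pooled over the chromosome the size of the differences was less unusual, with a median absolute log2 difference of 0.09 on chromosome 11 and 0.08 over all genes. By distance from Myh13 that median was 0.18 within 1 Mb, 0.13 between 1 and 5 Mb, 0.09 between 5 and 20 Mb and 0.08 beyond 20 Mb. The plot of p-values along chromosome 11 shows all 4 higher genes that passed before Myh13, and Cpd, which is lower, beyond it. Neighbouring genes of outbred animals share inherited stretches and are not independent of each other, and the genotypes of the animals were not analysed here.

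**Figure D3:**
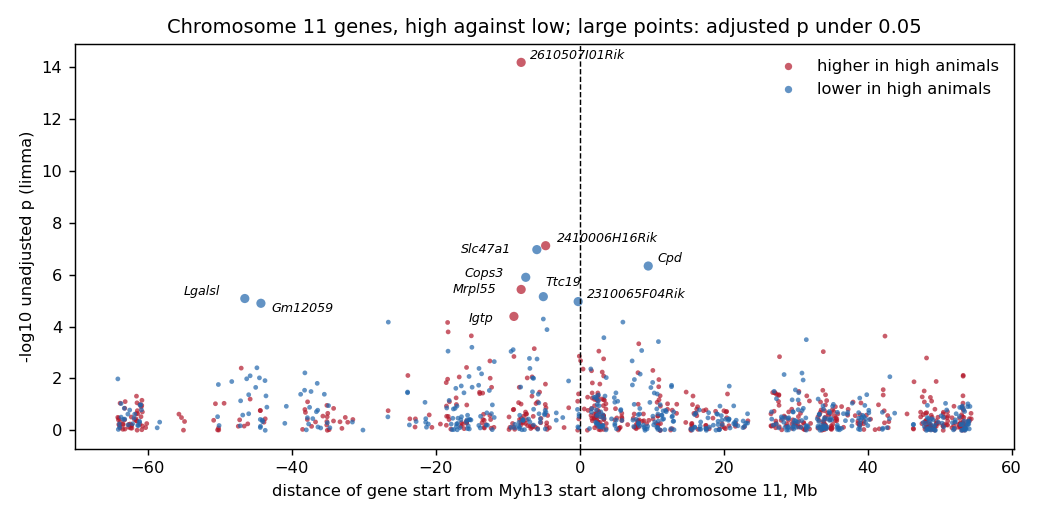
Each point is 1 of the tested genes of chromosome 11, placed by the distance of its start from that of Myh13 (horizontal axis, Mb, dashed line at Myh13) and by the negative log10 of its unadjusted limma p (vertical axis). The 11 large named points passed the adjusted threshold, 4 higher (red) and 7 lower (blue) in the high animals, and 9 of the 11 lie within 20 Mb of Myh13.

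Of the other genes within 1 Mb of Myh13, those that are not myosins gave small or uncertain differences. Gas7, a growth-arrest gene next to Myh13, was at 1.85, 2.24 and 3.11 (lowest, median and highest) in the high and at 0.32, 1.65 and 4.18 in the low animals, a difference of 0.65 ± 0.20 (SE) with a limma adjusted p of 0.395. Dhrs7c, a dehydrogenase of the sarcoplasmic reticulum, differed by 0.18 ± 0.06 (SE), with a limma adjusted p of 0.513. Adprm (0.18), Stx8 (0.10), Sco1 (0.00), 9430073C21Rik (-0.07), Tmem220 (-0.20) and Myhas (-0.34) had log2 differences with limma adjusted p-values from 0.719 to 0.996. Without Geniad55 Myhas differed by -0.56 and did not pass either (limma adjusted p = 0.923). The others then differed by 0.12 (Adprm), 0.02 (Stx8), 0.04 (Sco1), 0.02 (9430073C21Rik) and -0.22 (Tmem220). Myhas is an antisense RNA of the cluster whose exons overlap those of Myh1, and 9430073C21Rik overlaps Myh2 on the opposite strand.

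None of the 12 other myosin heavy chain genes in the table passed the threshold (0 of 12 with limma, against 0.0893% of all genes), and 2 of the 12, Myh8 and Myh2, had an unadjusted p under 0.05, against 7.51% of all genes. Without Geniad55, 4 of the 12 had an unadjusted p under 0.05, as Myh11 (limma, 0.00946) and Myh9 (0.0400) joined them, and again 0 passed the adjusted threshold. Myh8, the perinatal chain and the nearest heavy chain gene to Myh13, showed the largest difference. Its log2 level in the high animals was lowest at 8.70, had a median of 9.25 and was highest at 9.51, against 3.45, 7.90 and 9.71 in the low animals. All 10 high animals exceeded 62 of the 82 low animals, and 1 low animal lay above them all. The difference was 1.95 ± 0.59 (SE), with a limma adjusted p (Benjamini-Hochberg) of 0.323. With the Myh13 level in place of the groups the limma adjusted p for Myh8 was 0.031, and with rank-based normal scores it was 0.0187. Both fits use the same animals, and the Myh13 level itself chose the groups and mostly repeats their split. Myh8 also shares sequence with Myh13, so these values are no independent support.

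The Myh8 values of the low animals formed 2 separate sets, and their SD was 1.90 (n = 82) against 0.26 (n = 10) in the high animals. The fit took 1 spread for both groups, so the SE and p of Myh8 above rest mostly on the spread of the low animals. No animal lay between 4.62 and 6.87. In 19 low animals Myh8 was below that gap, with a median of 3.96, and in 63 it was above, with a median of 8.18. All 10 high animals were in the upper set, with 0 in the lower. The 19 low animals of the lower set had Myh13 from 1.28 to 2.75, with a median of 2.14, and the 63 of the upper set from 1.29 to 4.49, with a median of 2.82. Myh3 was divided too, but the high animals were in its lower set: 11 low animals and 0 high animals lay above the gap from 5.90 to 7.62. Those 11 low animals had Myh13 from 2.51 to 4.49, with a median of 3.47. The 71 low animals below the gap had Myh13 from 1.28 to 4.20, with a median of 2.57. These sets were noticed in the values and were not tested.

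The ranges of the main adult chains overlapped between the groups. Myh4 was at 15.53, 15.83 and 16.12 (lowest, median and highest) in the high and at 14.96, 15.91 and 16.41 in the low animals, a difference of -0.09 ± 0.08 (SE; limma adjusted p = 0.835). Myh1 was at 11.98, 12.42 and 13 in the high and at 11.58, 12.35 and 13.65 in the low animals (difference 0.12, limma adjusted p = 0.86). Myh2 was at 10.48, 11.52 and 11.99 in the high and at 10.12, 11.19 and 12.37 in the low animals, a difference of 0.33 ± 0.16 (SE; limma adjusted p = 0.651). The slow chain Myh7 ranged widely in both groups, from 0.51 to 8.41 in the high and from 0.58 to 8.29 in the low animals, with a difference of 0.29 (limma adjusted p = 0.932) that was 0.77 without Geniad55.

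The rarer and the non-sarcomeric chains did not pass either. Myh3, the embryonic chain, differed by -0.15, Myh6, the alpha chain of the heart, by 0.84 and Myh7b, a slow-tonic chain, by 0.35. The non-muscle chains Myh9 (0.14), Myh10 (-0.03) and Myh14 (0.03) and the smooth muscle chain Myh11 (0.11) did not pass. The limma adjusted p-values of these 7 genes ran from 0.696 to 0.976. Without Geniad55, which stood far from the other high animals in Myh11 and Myh3, the difference was 0.38 for Myh11 (limma adjusted p = 0.884) and -0.32 for Myh3. It was then 1.09 for Myh6 and 0.07 for Myh10.

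**Figure D4:**
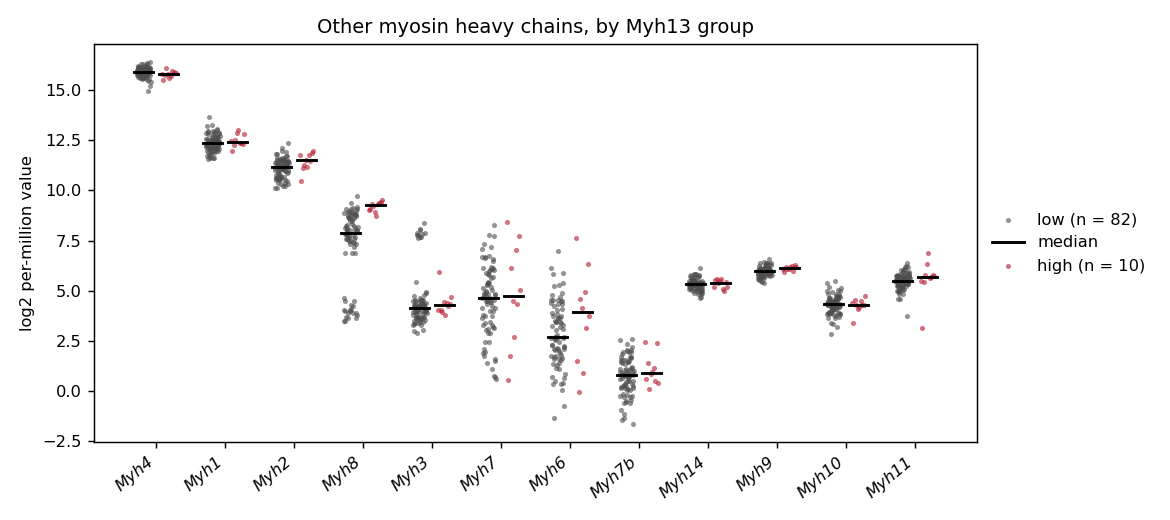
Log2 per-million level (vertical axis) of the 12 other myosin heavy chain genes in each low animal (grey, n = 82) and high animal (red, n = 10), with group medians as black bars. In Myh8 the 10 high animals lie at 8.70 to 9.51 beside a low group split around a gap from 4.62 to 6.87.

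Within the low animals alone, where Myh13 was rare, its level varied together with other heavy chains. This slope was added after the first results had been seen. Over the 82 low animals, 5 genes (0.0372% of those tested) had a slope on the Myh13 level at a limma adjusted p under 0.05 (Benjamini-Hochberg), all 5 rising, while 652 reached the unadjusted threshold of 0.05. They were Myh3 (slope 1.03 ± 0.20, SE, in log2 per log2 unit of Myh13), Myh2 (0.35 ± 0.07), Myl10 (0.60 ± 0.13), Myh8 (1.32 ± 0.28) and Myh7b (0.64 ± 0.14), with adjusted p-values from 0.0271 to 0.0361. All except Myl10, a myosin regulatory light chain, are heavy chains. The Myh3 and Myh8 values of the low animals form the separate sets described above, and the part of these sets in the slopes was not tested. Of the 12 genes that differed between the groups, 0 passed here, though 2 of the 12 reached the unadjusted threshold. All 5 also passed on the log2(value + 1) scale and with the first 3 principal components as covariates. With the title-number run as a covariate Myh3 passed, while the slopes of the others that no longer did were close to those without it, such as 1.33 for Myh8 and 0.36 for Myh2. Without the 3 low animals highest in Myh13 (4.49, 4.20 and 4.18) 0 passed, with slopes of 1.37 for Myh8, 0.76 for Myh7b, 0.65 for Myl10, 0.88 for Myh3 and 0.29 for Myh2. With rank-based normal scores 0 passed as well. Of the 31-base words of these genes, Myh3 shares 4.96%, Myh8 4.49%, Myh2 4.47% and Myh7b 0.0757% with Myh13, and the part of shared sequence in the slopes was not tested.

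The 10 genes most like Myh13 were taken by Spearman's rho over the 92 animals, leaving out genes whose mean was under 1. The values of an animal share the scaling of its library. The first gene was Myh8 (0.56), followed by Zswim7 (-0.45), Myh2 (0.42), Slc47a1 (-0.38), 9430015G10Rik (0.38) and Cops3 (-0.38), and 4 more genes reached 0.36 to 0.37 in size. Below that mean, Myh7b had a rho of 0.46 and Myl10 of 0.37. Because the animals form separate groups in Myh13, the values within groups differ. Myh8 had a rho of 0.42 within the 82 low and -0.36 within the 10 high animals. Myh2 had 0.40 within the low and -0.87 within the high animals, and Slc47a1 -0.18 and 0.19. With 10 animals these last values are a description only.

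Genes that mark fibre types did not pass the test in either direction. Of the 196 listed genes in the table, in 18 lists, 0 passed with limma (0.0893% of all genes did). The median log2 difference over all genes was 0.00, 6660 of the 13440 genes were higher in the high animals, and 7.51% had an unadjusted p under 0.05. The list counts below are to be read beside these shares. All 10 slow fibre genes were higher in the high animals, with a median difference of 0.43, and Tnni1, the slow inhibitory troponin, had the largest at 1.02 (limma adjusted p = 0.702). Tpm3 differed by 0.63 and Atp2a2, the slow calcium pump, by 0.38. The slow fibre genes vary together from muscle sample to sample: their summed level ran from 6.78 to 10.79 in the high and from 6.50 to 10.57 in the low animals, which is almost the same range. The 14 fast contractile genes had a median difference of 0.04, with 10 positive and Myh2 the only member at an unadjusted p under 0.05. The 15 fast glycolytic entries had a median of 0.01 and 0 at that threshold.

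Other genes of extraocular muscle did not accompany Myh13 at the adjusted threshold. Of the 9 extraocular and developmental genes that were measured, 8 were higher, with a median difference of 0.27, but apart from Myh8 none had an unadjusted p under 0.05. The cardiac actin Actc1 differed by 0.27, and the light chain Myl4 by 0.35, and without Geniad55 by 0.04 and 0.01. The summed level of the list ran from 9.08 to 9.99 in the high and from 6.49 to 10.41 in the low animals.

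Light chains and unconventional myosins gave 0 genes past the adjusted threshold as well. Of 19 genes of light chains, their kinases and other myosin-associated proteins such as Mybpc1 and Mylip, 13 were higher, with a median of 0.07 and 1 gene, Myl6b (0.29, limma adjusted p = 0.641), at an unadjusted p under 0.05. Without Geniad55, its highest animal, Myl6b differed by 0.17, with an unadjusted p of 0.209. In that fit 2 other genes of the list were at the unadjusted threshold, Mylk (0.37, limma unadjusted p = 0.00438) and Myl9 (0.27, 0.0402). Of 17 unconventional myosins 11 were higher, with a median of 0.07, and Myo1f (0.65) and Myo9a (0.31) were at the unadjusted threshold, which both missed without Geniad55 (unadjusted p = 0.088 and 0.0529). Myo1d (0.26) reached that threshold only without Geniad55 (limma unadjusted p = 0.0192). Among 27 regulators of fibre type, such as Mef2a (-0.12), Tbx15 (-0.11) and Ppargc1a (-0.23), 17 were lower, with a median of -0.02. The 16 genes of the neuromuscular junction and denervation had a median of 0.17, with 11 higher, such as Chrnd (0.33) and Gadd45a (0.45), 5 lower, such as Musk (-0.20) and Dok7 (-0.12), and 0 at the unadjusted threshold. The 16 oxidative phosphorylation genes had a median of -0.05, and the 5 genes of satellite cells and regeneration a median of 0.04, with Vcam1 (0.31) at the unadjusted threshold.

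Markers of other cell types in the muscle also failed to pass. All 8 macrophage markers were higher in the high animals, with a median of 0.31 and a smallest limma adjusted p of 0.696 for C1qb, and their summed level ran from 5.57 to 7.22 in the high and from 4.82 to 8.38 in the low animals. Of 10 adipocyte markers 8 were lower, with a median of -0.12, but this direction rested on Geniad55: without it 8 of the 10 were higher, with a median of 0.22. The medians were 0.01 for 8 endothelial, 0.13 for 8 fibroblast, 0.08 for 7 Schwann cell and 0.05 for 6 blood markers, of which Ptprc (0.45) was at the unadjusted threshold, which it missed without Geniad55 (unadjusted p = 0.144). The 6 muscle-defining genes had a median of 0.02. The plot of the lists shows these differences gene by gene. With the slow fibre score as a covariate, 13 genes passed, including all 12. The part of the other lists in these differences was not tested.

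Geniad55 moved the medians of several lists, and without it 0 listed genes passed as before. The slow fibre median was then 0.77, with all 10 genes higher, and the macrophage median 0.20, with all 8 higher. Of the slow fibre genes, 1 was then at an unadjusted p under 0.05, Tpm3 (limma, 0.0415). The median of the heavy chains was 0.28, of the light chain list 0.06 and of the unconventional myosins 0.02. The extraocular and developmental list then had a median of 0.04 and the neuromuscular list 0.05. The fast contractile list had a median of 0.00, with 7 of 14 genes higher, the fast glycolytic list 0.03, and the regulators of fibre type 0.00, with 14 of 27 higher. The medians of the other lists were 0.24 for blood, 0.19 for Schwann cell, 0.17 for fibroblast and 0.07 for endothelial markers, 0.04 for the muscle-defining genes, 0.00 for oxidative phosphorylation and -0.02 for satellite cells and regeneration.

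**Figure D5:**
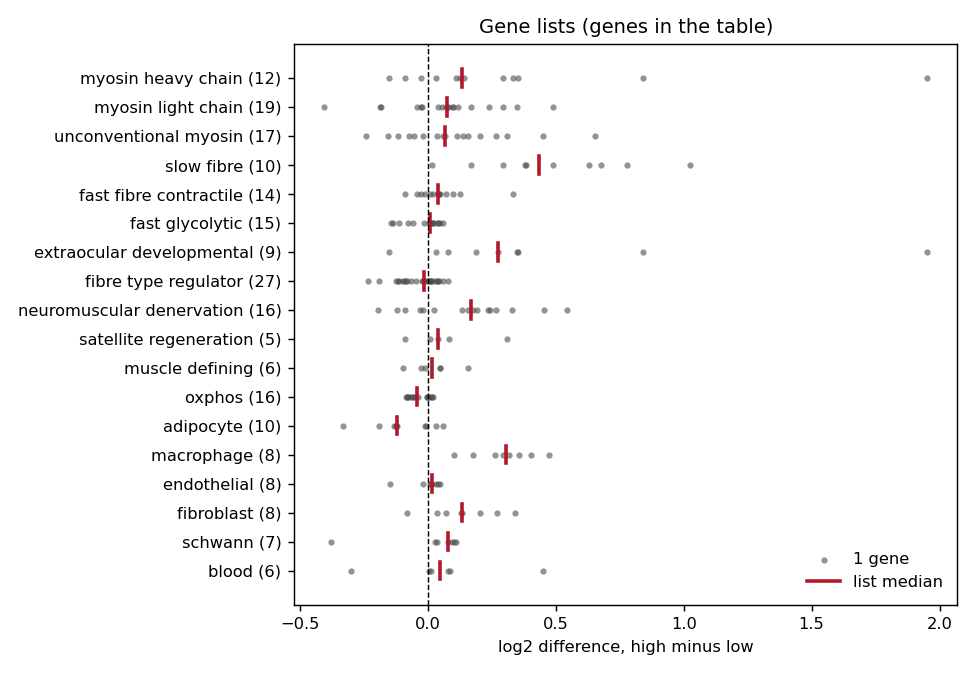
Log2 difference (high minus low, horizontal axis) of each gene of the 18 lists (grey points, number of genes in brackets) with the list median in red. Slow fibre and macrophage genes are all at or above 0, with medians of 0.43 and 0.31, and no listed gene passed the adjusted threshold.

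Within single runs of title numbers the differences varied in size. The 2 runs with at least 2 high animals held 8 high and 46 low animals together. These are 8 of the 10 high animals in which the 12 genes were found, so the direction within a run is a description and no independent support. For 2610507I01Rik the within-run differences were 2.92 and 3.23, for 2410006H16Rik 0.93 and 0.95, and for Slc47a1 -1.13 and -1.10. For Gm57403 they were -1.06 and -0.05, so that 1 of the runs showed almost none of its difference, and for 2310065F04Rik -1.11 and -0.31. Among slow fibre genes, Myh7 (-1.35 and 1.30), Tpm3 (-0.27 and 1.11) and Atp2a2 (-0.12 and 0.65) went opposite ways in the 2 runs. Tnni1 (0.12 and 1.35) was higher in both. A test of the interaction between group and run gave 1 gene (0.00744%) at a limma adjusted p under 0.05, which is none of the 12, and 574 at the unadjusted threshold.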

How the data were processed

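The 92 libraries are polyadenylated RNA from quadriceps, made with the KAPA mRNA HyperPrep kit per the labels' protocols. The authors deposited log2 values per gene and sample, whose antilogs sum to between 898071 and 1140760 per sample, so they are close to per-million values. The exact scaling, depth, strand setting and filter are not given in the sources used here, so no interval that needs counts was computed. The submitters' processing notes name bcl2fastq, MultiQC, kallisto 0.50.1, edgeR and the build mm10, with no role. The table had 13456 lines, and 13441 genes remained after 15 identical repeats were dropped. Of these, 13254 were found in GENCODE M21 (GRCm38), the source of all positions, exons and transcript sequences. The stretch between starts comes from RefSeq.

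Genes other than Myh13 were tested with limma 3.58.1 in R 4.3.3 (empirical Bayes with trend, Benjamini-Hochberg over 13440 genes), which was checked on simulated data. limma took the place of a count test because the table holds no counts. The fit took the same spread in both groups for each gene, which some genes did not have. The SD in the high and low animals was 0.41 and 0.23 for Cpd, 0.95 and 0.56 for Igtp and 0.93 and 0.57 for Gm12059. For Myh8 it went the other way, with 0.26 and 1.90. The division by Myh13, the gene lists and the tests were chosen with earlier results of these data known. Named genes are all myosin heavy chains and all genes within 1 Mb of Myh13. They include up to 10 rising and 10 falling genes past the threshold with a mean of at least 1. Also named are the 10 genes of chromosome 11 with the smallest p and the 10 most like Myh13 by rho with a mean of at least 1. The last are the 3 members of each list with the smallest p. Gm57403, Irgm2, Slc4a8, Actc1, Myl4, Myl9, Myo1d, Mybpc1, Mylip, Musk, Dok7, Des, Mb and Ttn fall outside this rule and were named after their values were seen. Values of some listed genes are not reported here. Alternatives changed 1 choice at a time: covariates, threshold, low-value filter, log2(value + 1), centring, quantile normalization, test and animals left out.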

Additional observations from a re-analysis of the deposited data

Results flagged for a closer look

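Some high animals stood far from the other 9 in single genes. Of 84 genes examined among the 10 high animals, 15 had a highest or lowest animal whose gap to the next exceeded Dixon's 95% limit, which chance passes in about 1 of 20 such groups. Geniad55 was that animal in 12 of the 15. It was the lowest in Myh11 (3.12), Myh10 (3.39), Lgalsl (5.55), Ndufa9 (7.30), Uqcrc2 (7.80), Kdr (4.04) and Pecam1 (5.75). It was the highest in Myh3 (5.90), Myhas (5.18), Myl6b (3.45), Casq1 (11.80) and Chrne (5.07). Of these genes, the difference between groups had passed for Lgalsl alone, and it did not pass without Geniad55 (limma adjusted p = 0.227).

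Geniad27 was the highest in 2610507I01Rik, at 3.98 where the next high animal was at 2.93. Geniad273 was the highest in Tbx15 (8.61), and Geniad350 in Ppargc1a (6.79), a regulator of mitochondrial genes.

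Slc4a8, a bicarbonate transporter gene of chromosome 15, was the only gene past the adjusted threshold in the interaction test between the 2 runs of title numbers (limma adjusted p = 0.0296). Its mean was 0.11 in the high and 0.22 in the low animals, near the bottom of the measured range, and over all animals it did not differ (limma adjusted p = 0.961).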

How the results depend on the processing

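No paired analysis was possible because the labels give 1 group with no replicate numbers shared between high and low animals. Thresholds of 6 and 8 on Myh13 and a margin of 0.5 gave the same groups, so they tested nothing and are left out of the counts here. Across the other 21 alternatives the count of 12 genes ran from 5 to 14, and none of the 12 changed sign. Rank-based normal scores gave the lowest count, 5 genes, all on chromosome 11 and 4 of them among the 12, and the cause was not tested. Leaving out each high animal in turn gave 8 to 14 genes in all and 7 to 14 on chromosome 11. Without Geniad27, 8 passed, 7 of them on chromosome 11. Requiring a mean of at least 1 left 8 of the 12, since 2610507I01Rik, Gm12059 and Gm57403 were then not tested and Igtp missed. 2410006H16Rik, Slc47a1 and Cops3 passed in 21 of 21 alternatives and 2610507I01Rik in 20 of 20, while Cpd passed in 20, Mrpl55 in 18, Ttc19 and Lgalsl in 17, 2310065F04Rik in 16 and Igtp in 8 of 21. Gm57403 passed in 16 and Gm12059 in 13 of 20. Cpd missed only by rank scores (limma adjusted p = 0.332). With Myh13 as a continuous predictor, or rank scores, 1 myosin gene passed in place of 0, Myh8, and likewise 1 listed gene. The slopes within the low animals, chosen after seeing the data, gave the same 5 genes on the log2(value + 1) scale and with 3 principal components, 1 gene with the title-number run as a covariate, 0 by rank scores and 0 without the 3 low animals highest in Myh13. The number of high animals, 10, limits the precision of every difference.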
